A study of Mus musculus with 4 samples.

Results

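The prostaglandin and leukotriene pathway was followed through 10 genes, which were chosen by name as Pla2g4a, Ptgs1, Ptgs2, Ptges, Ptges2, Ptger2, Ptger4, Alox5, Alox5ap and Lta4h. All 10 were rows of the table of 17013 genes. RNA was sequenced from wild-type mouse bone marrow-derived macrophages, grown from marrow with M-CSF and then kept on porous cell culture inserts for 24 h above material from abdominal fat that had been killed by freezing and thawing. In the Con group (2 libraries), the wells below the inserts received the middle, fat-poor layer of that material, and in the Fat group (2 libraries) they received the top fat layer. Cells of both groups also received artificial necrotic bone fluid (aNBF), an extract of freeze-thawed bone and marrow, so neither group was free of necrotic material. The marrow, bone and fat came from C57BL/6 male mice, whose age was not given for these cells. The comparison of Fat with Con asks how the top fat layer, set against the middle layer, changes the RNA of cultured macrophages given aNBF. Uptake of fat was not measured in these libraries. The labels do not say whether the 2 libraries of a group came from separate cultures or animals, so the p-values measure only the spread between these libraries, which may be technical.

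Each library held 33573852 to 40785872 reads assigned to genes, and 1 read was worth 0.0244 to 0.0295 CPM. CPM gives the reads of a gene scaled for library size. The CPM values did not sum to the same total in each library. The deposited values thus already carried a further scaling factor for each library, whose origin was not tested. The macrophage label was checked with 6 markers, which were all present. Their summed level was 35396 and 33418 CPM in Con and 28089 and 26555 CPM in Fat. Most of each sum was Lyz2, at 28720 and 26819 CPM in Con and 21516 and 20347 CPM in Fat, which did not pass (limma adjusted p = 0.209). Cd68 (log2 fold change 0.09) and Itgam (0.07) were positive with overlapping groups, and the other 4 markers were negative. Of the 6, only Mertk passed, lower in Fat (log2 fold change -0.31, limma adjusted p = 0.0289). The Mertk call was lost without Con replicate 1, without Fat replicate 2, on TPM values (0.0776) and without the mean-variance trend. DESeq2 called 2 of the 6, and 3 had an unadjusted p under 0.05. Of 8 adipocyte markers, the 7 other than Fabp4, which macrophages also express, reached at most 0.0885 CPM in Con and 1.80 CPM in Fat. Adipoq and Lep had 0 reads in both Con libraries, while Cidec and Plin4 were higher in Fat. The part of RNA from the added fat in the results was not tested. In bulk RNA, fewer expressing cells and less RNA per cell cannot be told apart.

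Prostaglandins and leukotrienes are lipid signals that macrophages make from arachidonic acid. A phospholipase frees the fatty acid from membranes. The cyclooxygenases then turn it into prostaglandin H, from which terminal synthases make prostaglandin E2 and its relatives, whereas 5-lipoxygenase with its activating protein turns it into leukotriene A4. In macrophages, prostaglandin E2 acts mainly through receptors that raise cAMP and restrain cytokine release, and leukotriene B4 attracts neutrophils.

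The promoters of the cyclooxygenase genes and of the paired prostaglandin E2 receptor genes are shown because the genes of each pair differed in opposite directions. Neither receptor gene passed the test at an adjusted p of 0.05. Each line runs from 250 bases before to 30 bases after the RefSeq transcription start, in the direction of the gene, from the mouse build GRCm38.p6. The windows are chr1:150099781-150100060 on the plus strand for Ptgs2, chr2:36230176-36230455 on the plus strand for Ptgs1, chr15:5244158-5244437 on the minus strand for Ptger4 and chr14:44987861-44988140 on the plus strand for Ptger2. Capitals mark matches to the 8 motifs searched on both strands.
Ptgs2: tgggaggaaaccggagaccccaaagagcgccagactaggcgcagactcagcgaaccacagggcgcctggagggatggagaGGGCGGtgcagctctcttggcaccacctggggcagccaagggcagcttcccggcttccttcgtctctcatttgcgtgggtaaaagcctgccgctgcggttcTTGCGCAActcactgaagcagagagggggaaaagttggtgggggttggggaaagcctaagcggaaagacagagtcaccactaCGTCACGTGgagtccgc
Ptgs1: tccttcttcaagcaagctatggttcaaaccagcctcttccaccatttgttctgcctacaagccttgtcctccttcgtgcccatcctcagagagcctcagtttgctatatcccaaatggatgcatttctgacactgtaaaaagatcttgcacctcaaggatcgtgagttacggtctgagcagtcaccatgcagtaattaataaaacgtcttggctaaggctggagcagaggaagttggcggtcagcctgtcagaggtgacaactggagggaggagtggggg
Ptger4: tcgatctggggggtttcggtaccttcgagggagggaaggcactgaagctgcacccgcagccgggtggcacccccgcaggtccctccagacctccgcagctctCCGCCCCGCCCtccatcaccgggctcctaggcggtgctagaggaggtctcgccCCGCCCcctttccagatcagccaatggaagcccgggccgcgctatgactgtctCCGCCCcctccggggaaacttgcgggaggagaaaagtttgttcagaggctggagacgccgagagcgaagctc
Ptger2: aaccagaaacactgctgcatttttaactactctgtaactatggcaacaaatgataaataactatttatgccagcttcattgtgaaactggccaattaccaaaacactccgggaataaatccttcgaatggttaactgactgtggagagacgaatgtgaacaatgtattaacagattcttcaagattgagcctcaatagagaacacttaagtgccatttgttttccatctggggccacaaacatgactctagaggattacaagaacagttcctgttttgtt

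Among all 32851 promoter windows of the table, the full cAMP response element TGACGTCA was found in 1.74%. Its first part alone, TGACG, was in 19.9%. The E box, written CACGTG, was in 6.79%, and the C/EBP-type element TTNNGCAA in 10.4%. The AP-1 element, written TGANTCA, was in 7.46% and the TATA element, written TATAAA, in 13.1%. The GC box, written GGGCGG, was in 34.7%, and the NF-kB site in 4.22%. The Ptgs2 window held 4 of these motifs. A GC box began 170 bases before the start, and TTGCGCAA, a match to the C/EBP-type element, began 69 bases before it. The first part of the cAMP response element, on the other strand, began at base 14 after the start and overlapped an E box that began at base 17. The Ptger4 window held 4 GC boxes, all on the other strand, and no other match. The Ptgs1 and Ptger2 windows held no match to any of the 8. Base composition differed in the same pairs, with 61.4% G and C in the Ptgs2 window against 49.6% for Ptgs1, and 66.8% for Ptger4 against 37.9% for Ptger2. The average over all windows was 53.6%. Ptges (59.6%, 2 GC boxes), Ptges2 (57.5%, 1 E box) and Alox5 (54.3%, 1 GC box) were above that average, with negative log2 fold changes. Lta4h (60.0%, no match) was above it with a positive one. The 2 Pla2g4a windows (43.9% and 41.4%, 1 TATA element in the second) were below it, with a negative one. The letters of these windows are a description and not sites of binding, and their part in the RNA levels was not tested.

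Macrophages given fat held more mRNA of the inducible cyclooxygenase and less of the constitutive one. Ptgs2, which encodes COX-2, had 33.8 and 25.7 CPM in the Con libraries and 44.3 and 47.4 CPM in the Fat libraries. Both Fat libraries lay above both Con libraries, and the means were 29.7 ± 5.76 CPM in Con and 45.9 ± 2.18 CPM in Fat (SD, n = 2 each). Ptgs2 rose 1.54-fold in mean CPM, with a log2 fold change of 0.64 (SE 0.12, 95% confidence interval 0.35 to 0.92, limma adjusted p = 0.0216). The Con libraries themselves differed, and without Fat replicate 2 the adjusted p was 0.0569 at a log2 fold change of 0.59.

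Ptgs1, which encodes COX-1, had 53.5 and 46.6 CPM in the Con libraries and 33.8 and 34.7 CPM in the Fat libraries. The groups did not overlap, and the gap between them was wider than the distance between libraries of either group. The mean was 50.1 ± 4.84 CPM in Con and 34.2 ± 0.582 CPM in Fat (SD, n = 2 each), 1.46-fold higher in Con. Ptgs1 fell by 0.54 on the log2 scale (SE 0.08, 95% confidence interval -0.73 to -0.36, limma adjusted p = 0.0085), and leaving out any single library kept the adjusted p between 0.0016 and 0.0162. Without limma's mean-variance trend, neither call passed, at an adjusted p of 0.0932 for Ptgs1 and 0.136 for Ptgs2.

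These were the only members that passed the limma test at an adjusted p of 0.05, 1 higher and 1 lower of 10 tested. Over all 12470 genes tested, 9.0% passed, 3.99% higher and 5.0% lower in Fat. At an unadjusted p under 0.05 there were 5 members, against 24.1% of all genes. The Fat and Con libraries did not overlap for 7 members, 3 higher and 4 lower. Such a separation was seen in 55.6% of all genes, 29.4% higher and 26.2% lower. The median log2 fold change was -0.06 over the members and 0.01 over all genes. edgeR and DESeq2, run on reads recovered from the CPM values, also called 2 members each.

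**Figure D1:**
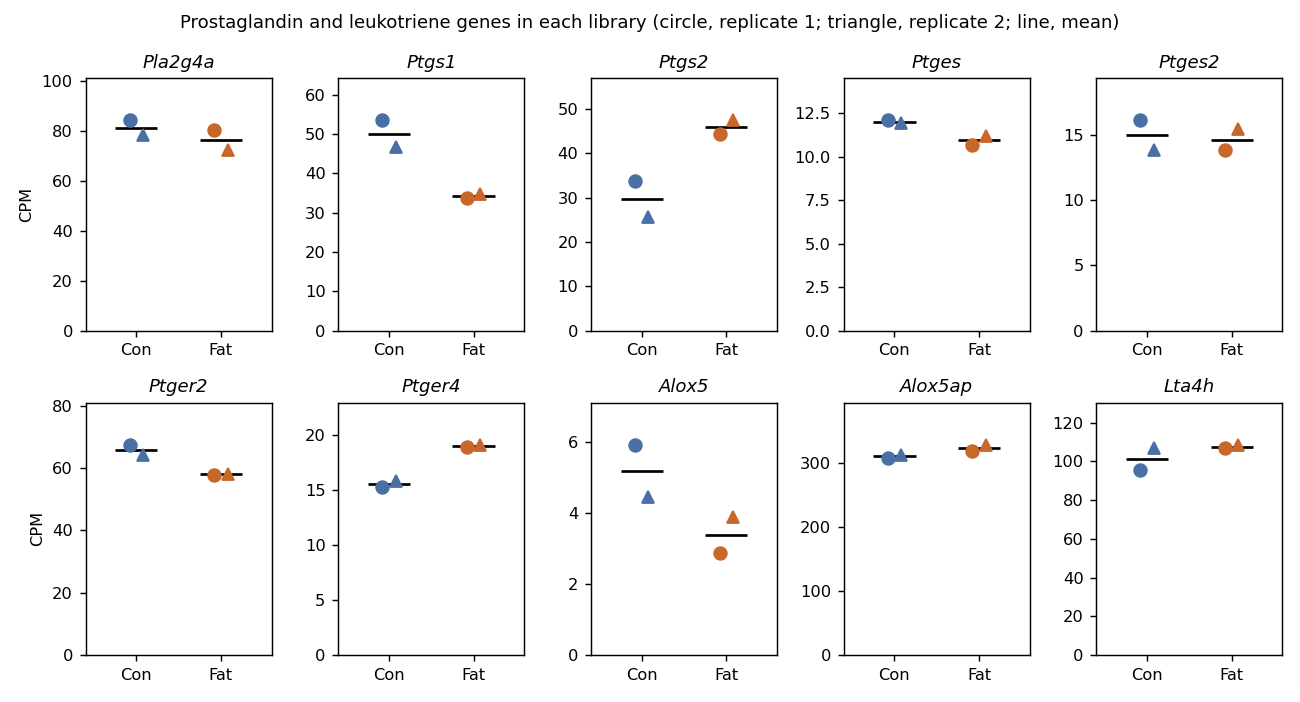
CPM of the 10 genes in each library, with a panel per gene, an axis from 0, a circle for replicate 1, a triangle for replicate 2 and a line at the group mean. Ptgs2 lay between 25.7 and 33.8 CPM in Con and between 44.3 and 47.4 CPM in Fat, while Ptgs1 lay between 46.6 and 53.5 CPM in Con and between 33.8 and 34.7 CPM in Fat.

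The opposite directions changed the balance of the cyclooxygenases inside each library, a ratio that no scaling of a library can alter. On the length-scaled TPM values, Ptgs2 was at 0.437 and 0.380 of Ptgs1 in the Con libraries and at 0.906 and 0.946 in the Fat libraries. On TPM values, Ptgs1 thus remained the higher of the pair in all 4 libraries, by a narrow margin in Fat. On CPM, which is not divided by length, Ptgs2 was at 0.632 and 0.550 of Ptgs1 in Con and at 1.31 and 1.37 in Fat. The order of the pair in Fat thus depends on the length scaling. The ratio was 2.27-fold higher in Fat (difference of log2 CPM ratios 1.18). The exact two-sided permutation test gave p = 0.333, the smallest value that 2 libraries against 2 allow.

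**Figure D2:**
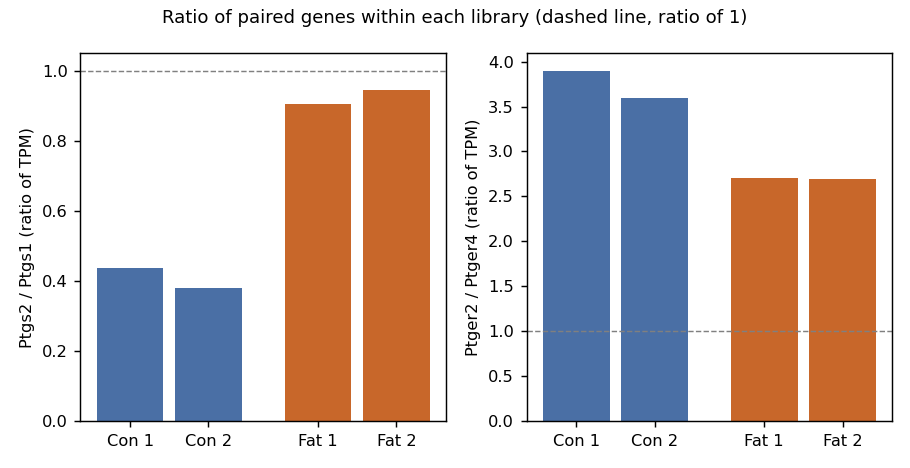
Ratio of TPM values within each library for the cyclooxygenase genes (left) and the prostaglandin E2 receptor genes (right), with bars from 0 and a dashed line at a ratio of 1. The Ptgs2 to Ptgs1 ratio was 0.380 and 0.437 in Con and 0.906 and 0.946 in Fat, and the Ptger2 to Ptger4 ratio was 3.59 and 3.90 in Con and 2.69 and 2.70 in Fat.

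The step before the cyclooxygenases did not pass the test. Pla2g4a, the cytosolic phospholipase A2 that frees arachidonic acid, had 84.2 and 78.6 CPM in Con and 80.3 and 72.2 CPM in Fat. The groups overlapped, and the 95% confidence interval of the log2 fold change ran from -0.26 to 0.07 (limma adjusted p = 0.471). Pla2g4a and Ptgs2 are neighbours on chromosome 1, with 138741 bases and no other protein-coding gene between them (GENCODE vM21, build GRCm38). Of 16 further genes for release of arachidonic acid and its return to membranes, 13 were tested and 1 passed, higher in Fat. This was Lpcat3, which puts arachidonic acid back into phospholipids, with 50.5 and 51.7 CPM in Con and 62.2 and 61.5 CPM in Fat (log2 fold change 0.27, limma adjusted p = 0.0255). Its call was lost without Con replicate 1 (0.0884), Fat replicate 1 (0.0871) or Fat replicate 2 (0.101). The largest other differences were those of Pla2g2d, a secreted phospholipase, at -0.87 (limma adjusted p = 0.219) and Pla2g4b, a cytosolic one, at -0.29 (0.494). Both were low, at most 0.796 and 1.31 CPM, and 78.1% of the sequence of Pla2g4b is shared with another annotated gene, so its reads are uncertain.

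Neither prostaglandin E synthase among the members passed the test. Ptges, the inducible membrane enzyme that is often coupled to COX-2, had 12.1 and 11.9 CPM in Con and 10.7 and 11.2 CPM in Fat. Its Fat libraries were thus lower, on the opposite side from Ptgs2, with a log2 fold change of -0.13 and a 95% confidence interval of -0.34 to 0.07 (limma adjusted p = 0.411). Ptges2, a second membrane-associated synthase, had 16.1 and 13.9 CPM in Con and 13.8 and 15.4 CPM in Fat. Those groups overlapped (log2 fold change -0.03, interval -0.28 to 0.21, limma adjusted p = 0.894).

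Of 8 other prostanoid synthases, 7 were tested and 1 passed. Akr1b3, an aldose reductase that can also make prostaglandin F, had 41.2 and 44.1 CPM in Con and 65.5 and 56.0 CPM in Fat. It rose by 0.51 on the log2 scale (limma adjusted p = 0.0145), and 14.2% of its sequence is shared with other annotated genes. The synthases of prostaglandin D and thromboxane were well expressed and did not pass the test. Hpgds lay between 103 and 106 CPM over the 4 libraries (log2 fold change 95% confidence interval -0.12 to 0.12), and Tbxas1 between 315 and 339 CPM (interval -0.19 to 0.08). Ptgis, the prostacyclin synthase, was near the detection filter, at most 0.737 CPM (log2 fold change -0.30, limma adjusted p = 0.609).

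Genes that export or break down prostaglandins included 2 that rose among 6 tested. Ptgr1, which reduces the oxidised products of prostaglandin breakdown and also inactivates leukotriene B4, had 196 and 184 CPM in Con and 266 and 286 CPM in Fat. This rise of 0.53 on the log2 scale (limma adjusted p = 0.0048) stayed below an adjusted p of 0.05 without any single library. Abcc4, a pump that carries prostaglandin E2 out of cells, had 47.3 and 45.1 CPM in Con and 55.1 and 59.1 CPM in Fat (0.31, limma adjusted p = 0.0289). Its call was lost on TPM values (0.058), without Con replicate 2 (0.0736) and without Fat replicate 2 (0.157). Slco2a1, the uptake transporter, had 3.04 and 3.87 CPM in Con and 3.78 and 4.90 CPM in Fat (0.32, limma adjusted p = 0.342). Hpgd, the enzyme that starts prostaglandin breakdown, had 24.1 and 22.8 CPM in Con and 19.3 and 24.3 CPM in Fat (-0.11, limma adjusted p = 0.597).

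Of the prostaglandin E2 receptors, Ptger2 and Ptger4 were expressed, and both encode receptors (EP2 and EP4) that raise cAMP. Ptger2 had 67.6 and 64.3 CPM in Con and 57.9 and 58.2 CPM in Fat. Ptger4 had 15.3 and 15.8 CPM in Con and 18.9 and 19.1 CPM in Fat. The libraries of each group lay close together and the groups did not overlap, in opposite directions for the pair. Neither passed the adjusted test, with a log2 fold change of -0.18 for Ptger2 (SE 0.06, interval -0.32 to -0.05, limma adjusted p = 0.0965) and of 0.29 for Ptger4 (SE 0.08, interval 0.11 to 0.46, limma adjusted p = 0.0591). Ptger4 overlaps Ttc33 on the opposite strand, a gene of up to 37.8 CPM, and the sources used here do not say whether reads were counted by strand.

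The ratio of Ptger2 to Ptger4 in TPM was 3.90 and 3.59 in the Con libraries and 2.70 and 2.69 in the Fat libraries, so Ptger2 remained the more abundant receptor mRNA throughout. Its log2 ratio was lower by 0.47 in Fat, a 1.39-fold shift towards Ptger4 (difference of log2 CPM ratios -0.47, exact two-sided permutation test p = 0.333, again the smallest possible). Of 7 other prostanoid receptors, 5 were listed and only the prostacyclin receptor gene Ptgir passed the filter on low values. Ptgir had 42.9 and 45.0 CPM in Con and 35.0 and 40.2 CPM in Fat (log2 fold change -0.23, limma adjusted p = 0.133), so limma, edgeR and DESeq2 called 0 genes of this group, and 1 had an unadjusted p under 0.05.

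The leukotriene arm started from a low level of 5-lipoxygenase mRNA. Alox5 had 5.93 and 4.45 CPM in Con and 2.87 and 3.88 CPM in Fat, from 201, 167, 107 and 159 reads. Both Fat libraries lay below both Con libraries, but the libraries of a group differed widely. The mean was 1.54-fold higher in Con, with a log2 fold change of -0.61 (SE 0.20, interval -1.07 to -0.15, limma adjusted p = 0.109). Without Con replicate 2 it was -0.81 and passed (adjusted p = 0.0499), while without Con replicate 1 it was -0.41 (0.378).

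The partners of 5-lipoxygenase were abundant and did not pass the test. Alox5ap, whose product FLAP presents arachidonic acid to 5-lipoxygenase, had 309 and 313 CPM in Con and 319.9 and 329 CPM in Fat. The Fat libraries lay just above the Con libraries (log2 fold change 0.06, interval -0.06 to 0.19, limma adjusted p = 0.535). Lta4h, the hydrolase that makes leukotriene B4, had 95.7 and 107 CPM in Con and 107 and 109 CPM in Fat (0.09, interval -0.06 to 0.24, limma adjusted p = 0.464), and its groups overlapped.

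Neutrophils and mast cells also express this arm, so their markers are given beside it. The 6 listed of 7 neutrophil markers summed to 333 and 289.7 CPM in Con and 287 and 291 CPM in Fat, and the 3 listed of 6 mast cell markers summed to 4.42 and 3.79 CPM in Con and 4.26 and 3.81 CPM in Fat. limma, edgeR and DESeq2 called 0 genes of either list, and 2 neutrophil markers and 1 mast cell marker had an unadjusted p under 0.05. All 6 neutrophil markers had negative log2 fold changes. For 4 of the 6 (66.7%, against 26.2% of all genes), both Fat libraries lay below both Con libraries. The largest differences were those of Mpo at -1.03 (limma adjusted p = 0.0784) and Elane at -0.67 (0.280) in the first list and of Kit at -0.62 (0.132) and Hdc at 0.44 (0.211) in the second. Their part in the Alox5 values was not tested.

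Of 16 other leukotriene, lipoxygenase and epoxide hydrolase genes, 12 were tested and 3 passed, 1 higher and 2 lower. Mgst2, which can join glutathione to leukotriene A4 to give leukotriene C4, had 8.58 and 10.3 CPM in Con and 16.1 and 16.4 CPM in Fat. It rose 1.72-fold, or 0.79 on the log2 scale (limma adjusted p = 0.0075). Ephx1, the microsomal epoxide hydrolase, fell from 134 and 128 CPM in Con to 85.8 and 89.6 CPM in Fat (-0.57, limma adjusted p = 0.0034). Cyp4f18, which inactivates leukotriene B4 by oxidation, had 14.7 and 15.7 CPM in Con and 11.2 and 11.4 CPM in Fat (-0.43, limma adjusted p = 0.0243). The Mgst2 and Ephx1 calls held without any single library, whereas the Cyp4f18 call was lost without any one of the 4 (adjusted p 0.0515 without Con replicate 1, 0.0799 without Con replicate 2, 0.0643 without Fat replicate 1 and 0.0754 without Fat replicate 2).

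Of 6 leukotriene receptors, 4 were listed and 3 were tested. Cysltr1, a receptor for cysteinyl leukotrienes, had 27.8 and 19.4 CPM in Con and 20.9 and 21.1 CPM in Fat (log2 fold change -0.14, limma adjusted p = 0.624). Cysltr2, the second such receptor, had 4.33 and 3.31 CPM in Con and 2.81 and 2.68 CPM in Fat (-0.45, limma adjusted p = 0.163). Ltb4r1, the leukotriene B4 receptor, had 1.15 and 0.906 CPM in Con and 0.831 and 0.537 CPM in Fat (-0.54, limma adjusted p = 0.309). All 3 values were negative, and limma, edgeR and DESeq2 called 0 of them, with 1 at an unadjusted p under 0.05.

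Beyond the 10 genes, 42 of 59 genes were tested and 7 passed (16.7%), 5 higher and 2 lower in Fat, against 9.0% of all genes, 3.99% higher and 5.0% lower. Their median log2 fold change was -0.02. The groups did not overlap for 18 of the 42 (42.9%), against 55.6% of all genes.

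**Figure D3:**
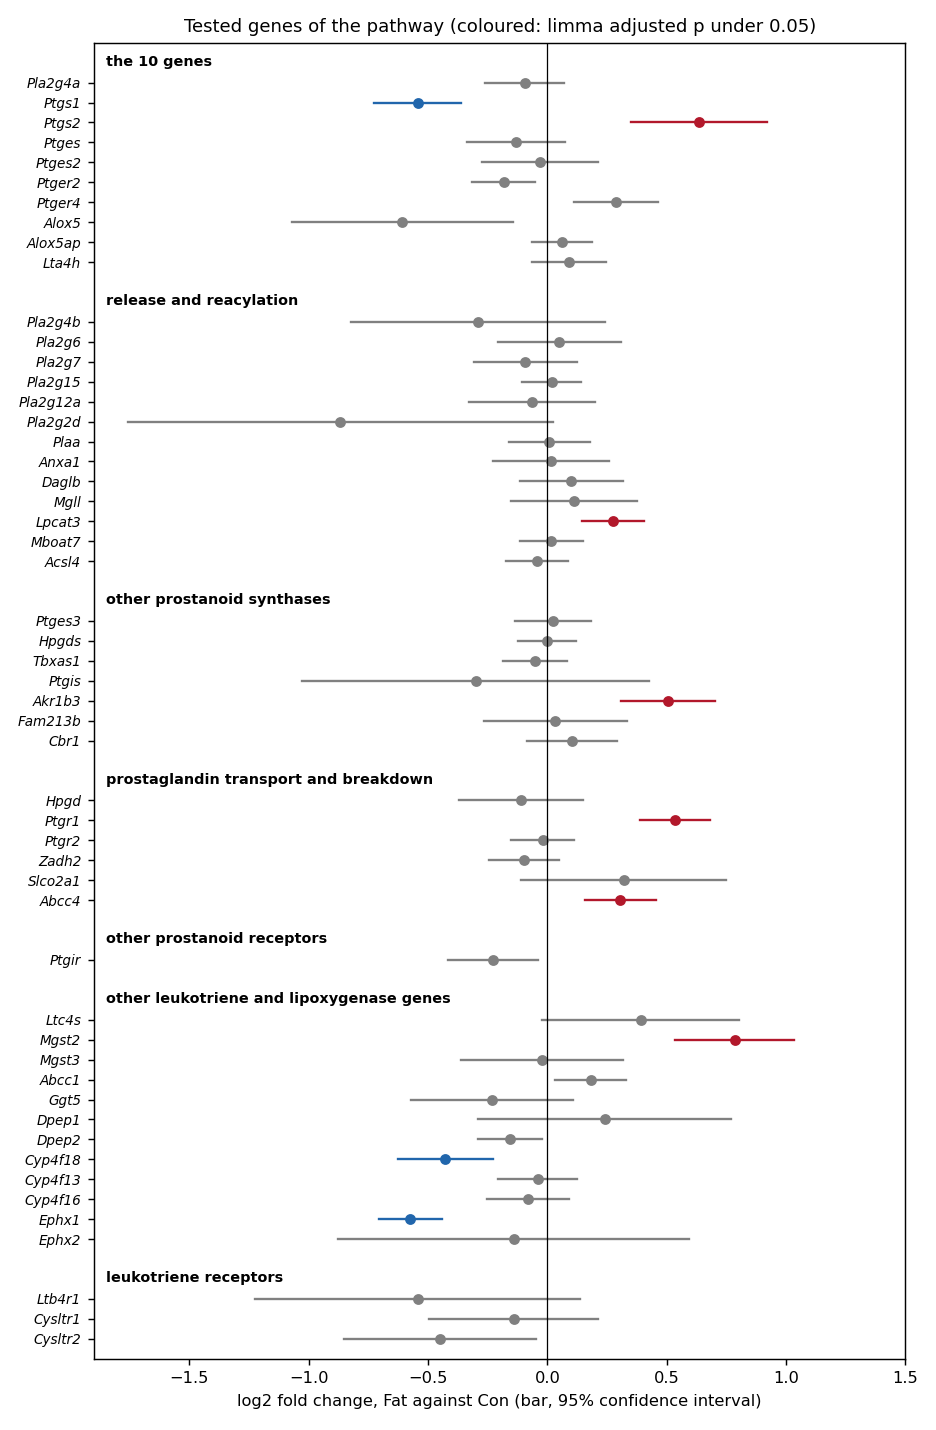
Log2 fold change of Fat against Con for every tested gene of the pathway, grouped by step, with bars for the 95% confidence interval and colour where the limma adjusted p was under 0.05 (red higher, blue lower in Fat). Among the 10 genes, Ptgs2 at 0.64 and Ptgs1 at -0.54 are coloured, and among the 42 others 5 are red and 2 are blue.

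Levels can be compared between genes on the TPM scale, which divides by length. Alox5ap was far above the rest, with a mean of 815 TPM over the 4 libraries, followed by Lta4h at 111, Pla2g4a at 60.7, Ptger2 at 36.0, Ptgs1 at 32.2, Ptgs2 at 20.0, Ptges2 at 16.6, Ptger4 at 11.4, Ptges at 6.90 and Alox5 at 3.31 TPM. The ranges over the 4 libraries overlapped for Ptger2 and Ptgs1 and for Ptgs2 and Ptges2, and all other neighbours in this order were separate. The first and the last place thus belonged to FLAP and to the 5-lipoxygenase that it serves.

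**Figure D4:**
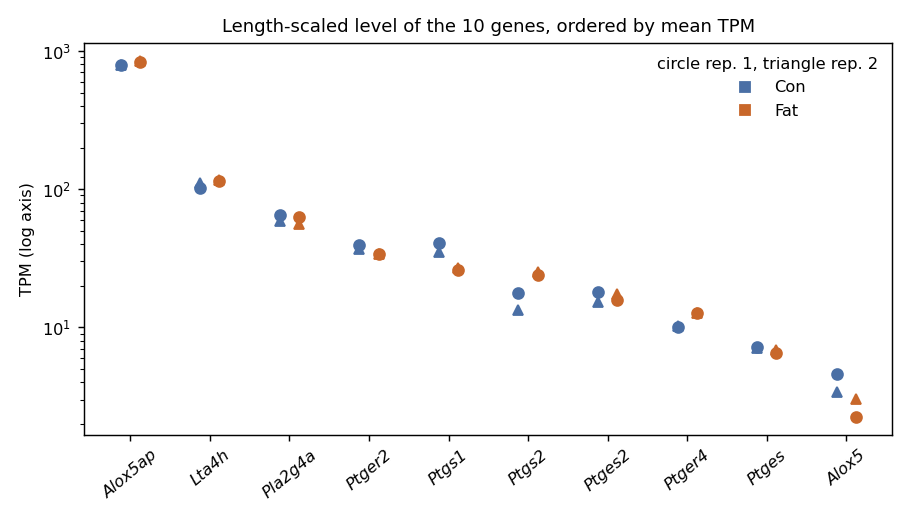
TPM of the 10 genes in each library on a log axis, ordered by mean TPM, with Con on the left and Fat on the right of each position, circles for replicate 1 and triangles for replicate 2. Alox5ap stands highest with a mean of 815 TPM and Alox5 lowest with a mean of 3.31 TPM.

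Because EP2 and EP4 signal through cAMP, 14 genes that cAMP is known to induce were read beside the receptors. Of these, 12 were tested and 5 passed (41.7%), all higher in Fat, against 9.0% of all genes in either direction and 3.99% higher. The list was chosen with earlier results of these data known, so these shares are a description and not a test. Fos, an immediate early transcription factor, had 136 and 151 CPM in Con and 259.5 and 313 CPM in Fat (log2 fold change 0.99, limma adjusted p = 0.0033). Areg, an EGF receptor ligand, had 0.708 and 0.666 CPM in Con and 1.53 and 2.34 CPM in Fat (1.34, limma adjusted p = 0.0229). Nr4a1, an orphan nuclear receptor, had 2.59 and 3.49 CPM in Con and 5.41 and 7.83 CPM in Fat (1.09, limma adjusted p = 0.0234). The AP-1 subunit gene Fosl2 (0.41, limma adjusted p = 0.0206) and the clock gene Per1 (0.39, limma adjusted p = 0.0226) also rose. The median over the list was 0.40. The other 7 tested genes did not pass. Positive values were those of Junb at 0.53 (limma adjusted p = 0.397), Pde4d at 0.41 (0.123), Thbs1 at 0.38 (0.116), Sik1 at 0.17 (0.324) and Crem at 0.04 (0.790). Negative values were those of Nr4a2 at -0.26 (0.489) and the phosphodiesterase gene Pde4b at -0.29 (0.298). For Nr4a2 and Pde4b both Fat libraries lay below both Con libraries. Il10 and Nr4a3 were under the filter, Il10 with 31 reads in Con and 26 in Fat and Nr4a3 with 8 and 12. Without Fat replicate 2, 1 gene of the list (Fos) passed, and the other called genes kept log2 fold changes of 1.05 (Areg), 0.83 (Nr4a1), 0.41 (Fosl2) and 0.33 (Per1). Many other signals induce the same genes.

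Ptgs2 is commonly induced together with inflammatory genes, and 8 of these, cytokines, chemokines and Nos2, were read beside it. Of 7 tested, 3 fell (42.9%, against 9.0% of all genes in either direction and 5.0% lower) and none rose. This list too was chosen with earlier results of these data known, so its shares are a description and not a test. Il1b (interleukin-1 beta) had 20.0 and 13.6 CPM in Con and 6.94 and 5.29 CPM in Fat (log2 fold change -1.43, limma adjusted p = 0.0076). Tnf had 24.4 and 24.2 CPM in Con and 16.4 and 14.8 CPM in Fat (-0.64, limma adjusted p = 0.0061). The monocyte chemokine gene Ccl2 had 93.4 and 75.5 CPM in Con and 39.4 and 20.6 CPM in Fat (-1.56, limma adjusted p = 0.0145). These 3 calls held without any single library, and in each of the 3 both Fat libraries lay below both Con libraries, the reverse of Ptgs2.

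The other inflammatory genes did not pass. Il1a was at -0.58 (limma adjusted p = 0.0732) and Nos2, the inducible nitric oxide synthase, at -1.57 (0.151), with Nos2 at 4.45 and 3.31 CPM in Con and 2.65 and 0.537 CPM in Fat. The neutrophil chemokine genes had positive values, Cxcl1 at 0.54 (0.242) and Cxcl2 at 0.27 (0.498). Cxcl1 had 2.624 and 1.813 CPM in Con and 2.626 and 3.951 CPM in Fat. Both its Fat libraries thus lay above both Con libraries, the side of Ptgs2, though Fat replicate 1 did so by a narrow margin. The Cxcl2 groups overlapped, and for Il1a and Nos2 both Fat libraries lay below both Con libraries. Without Con replicate 1, Cxcl2 passed at 0.62 (limma adjusted p = 0.044), and without Fat replicate 1, Nos2 passed (4.7e-04). Il6 was under the filter, with 9 reads in Con and 14 in Fat.

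For each member that passed, the genes with the most similar pattern over the 4 libraries were sought among the 9760 genes whose mean reached 5 CPM. Likeness was the root mean square difference of log2 values after each gene's own mean was subtracted. Nearest to Ptgs1 were Traf3ip3 (0.0116), Cxcl16 (0.0138) and Timp3 (0.0203). Nearest to Ptgs2 were Gm5150 (0.0366), Neat1 (0.0430) and Igfbp5 (0.0442). With 4 libraries, such a pattern is mostly the difference between the groups and that between the Con libraries.

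**Figure D5:**
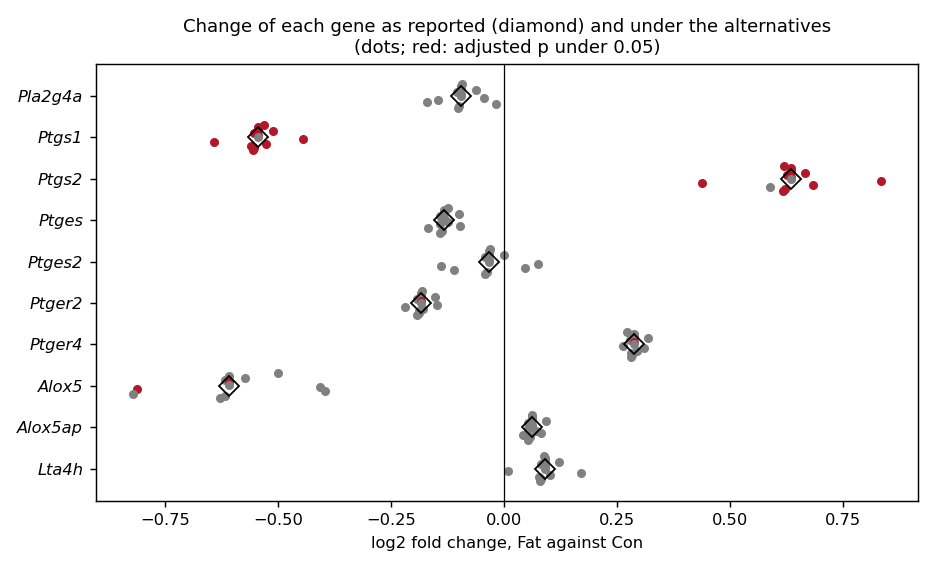
Log2 fold change of Fat against Con for the 10 genes as reported (diamond) and under the alternative settings (dots, red where the adjusted p was under 0.05). Ptgs1 stayed between -0.64 and -0.44 and Ptgs2 between 0.44 and 0.83, while the dots of Ptges2 lie on both sides of 0.

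Over 13 alternatives in processing, scaling, testing and left-out libraries, Ptgs1 kept its direction and passed in 12, and Ptgs2 kept its direction and passed in 11. Ptger2, between -0.22 and -0.15, and Ptger4, between 0.26 and 0.32, also kept their directions, as did Alox5 between -0.82 and -0.40.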

How the data were processed

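Poly(A) RNA of 4 libraries, 2 per group, was sequenced by the authors as single reads of 75 bases from a stranded kit. The deposited table gives CPM and TPM per gene and library, as made by the authors. The submitters' processing notes name GRCm39, and the aligner and counter are not given in the sources used here. The low CPM values were whole multiples of 1 read, and 100% of the values gave whole read counts (tolerance 0.001). Intervals quoted are those of the fit.

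A gene was tested where 2 or more libraries reached 0.5 CPM, which kept 12470 of 17013. Tests were two-sided and used limma 3.58.1 with its mean-variance trend on log2(CPM + 0.1), and p-values were adjusted over all tested genes after Benjamini and Hochberg. Fold changes are on that scale, which understates those of low genes. edgeR 4.0.16 (quasi-likelihood, 1138 genes called) and DESeq2 1.42.0 (1051) were run on the recovered counts as alternatives, beside limma's 1122. Further alternatives were median-ratio scaling, TPM in place of CPM, 1 CPM as the pseudocount, every gene kept, only genes whose mean reached 5 CPM, no trend, the replicate number as a block, and each library left out. Calls were counted at an adjusted p under 0.05.

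The members and gene lists were chosen with earlier results of these data known. The genes named are the members and, of each other list, all genes called and the 2 with the largest absolute log2 fold change. All inflammatory genes were named too, as were the 3 genes most like each member called. Hpgds, Tbxas1, Hpgd, Cysltr1, Ttc33, Crem, Nr4a2, Pde4b, Col1a1, Col1a2, S100a8 and S100a9, and the genes under the filter, were named after their values were seen. The same holds for Cd68, Itgam, Junb, Pde4d, Thbs1 and Sik1. Lists of other cell types gave 1 of 4 tested stromal markers (Dcn, lower) and 0 endothelial and 0 lymphocyte markers called by limma, edgeR or DESeq2, with 0 and 1 at an unadjusted p under 0.05. Of the members, 9 had a promoter in the RefSeq table (GRCm38.p6), whose build is not that of the table of reads, so these positions were used for sequence and neighbours only. Sharing of sequence was counted as the percentage of a gene's 75-base stretches that also occur in another gene of GENCODE vM21, and was 0 for the members.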

Additional observations from a re-analysis of the deposited data

How the results depend on the processing

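All 10 genes kept their direction under the alternatives except Ptges2, whose log2 fold change ran from -0.14 to 0.075 with 1 library left out, above 0 without Con replicate 1 or Fat replicate 1 (0.047). Cxcl2 ran from -0.079 (without Con replicate 2) to 0.62. Without the mean-variance trend, limma called 31 genes in all, 0 of the 10 and 0 of the other 42 pathway genes, although 5 and 9 had an unadjusted p under 0.05. It also called 0 of the cAMP response and 0 of the inflammatory genes (6 and 4 at that p). Leaving out 1 library at a time gave 529 to 1131 calls in all, 1 to 3 of the 10 and 4 to 7 of the others, lowest each time without Fat replicate 2. A lone library in a group was then assumed to vary like the other group. The log2 ratio of Ptgs2 to Ptgs1 differed by 1.08 to 1.28 and that of Ptger2 to Ptger4 by -0.53 to -0.41. The labels do not say that libraries with the same number were paired. With that number as a replicate block, limma called 2520 genes, 5 of the 10 (Ptger2 at an adjusted p of 0.0243, Ptger4 at 0.0115 and Alox5 at 0.0079 joined Ptgs1 and Ptgs2) and 10 of the others. The deviations of same-numbered libraries had a correlation of 0.20 over genes, which are not independent replicates. Among the cAMP response genes, a count added after seeing the data, 3 were called with a mean of at least 5 CPM, 8 with the block and 1 to 6 with 1 library left out. Alox5 could not be fitted with a mean of at least 5 CPM.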

Other observations

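Several receptors and enzymes of the pathway were too low to test. The prostaglandin E2 receptor genes Ptger1 and Ptger3 had 2 and 3 reads over both Con libraries and 11 and 9 over both Fat libraries. Ptgfr, the prostaglandin F receptor gene, had 5 reads in Con and 7 in Fat, and the thromboxane receptor gene Tbxa2r had 6 and 1. The second leukotriene B4 receptor gene, Ltb4r2, had 0 reads in Con, which allows up to 3 in each library, and 5 in Fat. Among lipoxygenases, Alox12 had 20 reads in Con and 18 in Fat, Alox15 had 11 and 8, and Alox8 had 4 and 7. Counting error alone is large at such numbers, and no direction is read from them. The EP2 and EP4 genes, with 1112 to 4704 reads per group, were the only prostaglandin E2 receptors with enough reads to compare.

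Of other cell types that bulk macrophage RNA could hold, stromal markers were plainly present, at 523 and 548 CPM summed in Con and 438 and 575 CPM in Fat, nearly all of it Col1a1 (176 to 253 CPM) and Col1a2 (255 to 321 CPM). The neutrophil markers S100a8 and S100a9 lay between 102 and 158 CPM. Endothelial markers summed to 6.28 and 4.58 CPM in Con and 6.89 and 7.56 CPM in Fat, and lymphocyte markers to 23.2 and 21.6 CPM in Con and 17.4 and 18.3 CPM in Fat. The part of these cells in the pathway values was not tested. The largest log2 fold changes among stromal markers were those of Dcn at -0.82 (limma adjusted p = 0.0358, lost in 3 of the 4 fits that left out a library and in DESeq2) and Pdgfra at -0.50 (0.0946). Among endothelial markers they were those of Pecam1 at 0.47 (limma adjusted p = 0.237) and Kdr at 0.28 (0.620), and among lymphocyte markers those of Cd3e at -0.62 (0.301) and Cd4 at -0.38 (0.0890). The macrophage marker Lyz2, the most abundant gene of its list, was at -0.41 (limma adjusted p = 0.209).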
